A study of Rattus norvegicus with 23 samples.

Results

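The genes described here are 9 regulators of the hepatocyte, read from the rows of the gene count table that carry their symbols: Hnf4a, Foxa1, Foxa2, Foxa3, Cebpa, Cebpb, Onecut1, Nr1i2 and Nr1i3. All 9 had a row among the 28913 rows of the table, and all 9 were among the 15079 genes with enough counts to be tested. They were measured by RNA-seq of whole liver from Sprague Dawley rats in a study that modelled portosinusoidal vascular disease, in which the small portal veins and sinusoids are damaged. The Control group (n = 6 libraries) was left untreated. The LPS group (n = 7) received lipopolysaccharide, a component of the bacterial outer membrane, at 1 mg/kg in 2 boluses per week for 8 weeks through an indwelling portal catheter placed by laparotomy under isoflurane. The Selfox group (n = 10) ate a selenium-enriched diet for 8 weeks and was given 8 weekly intravenous injections that combined 3 mg/kg oxaliplatin, 25 mg/kg 5-FU and 45 mg/kg folinic acid. The labels describe no surgery, vehicle or diet for the Control group, so operation and LPS, or diet and drugs, cannot be told apart. Age and sex were not given in the sources used here. Nothing in the labels ties the libraries to separate rats. The p-values therefore set group differences against the spread between these libraries, which may not be the spread between rats.

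A small set of factors holds hepatocytes in their mature state, and many of these factors bind each other's genes. HNF4A, a nuclear receptor that binds DNA as a homodimer, the forkhead factors FOXA1, FOXA2 and FOXA3, the leucine zipper factors C/EBP alpha and C/EBP beta, and ONECUT1 (HNF6) act together at the control regions of genes for plasma proteins, bile acid synthesis and energy metabolism. Nr1i2 encodes PXR and Nr1i3 encodes CAR, nuclear receptors that pair with RXR and switch on drug-metabolising enzymes when foreign or endogenous compounds are sensed.

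The RefSeq promoter windows of build GRCr8, each running from 250 bases before a transcript start to 50 bases after it, held 8 windows for 7 of the 9 genes. The upstream window of Hnf4a and the window of Foxa3, the 2 members with a changed level, and that of Foxa2, the relative of Foxa3 without a changed level, are shown because the members are regulators that can bind each other's promoters. Capitals mark matches, on either strand, to 8 short motifs.
Hnf4a, upstream start, chr3:172605970-172606269, plus strand: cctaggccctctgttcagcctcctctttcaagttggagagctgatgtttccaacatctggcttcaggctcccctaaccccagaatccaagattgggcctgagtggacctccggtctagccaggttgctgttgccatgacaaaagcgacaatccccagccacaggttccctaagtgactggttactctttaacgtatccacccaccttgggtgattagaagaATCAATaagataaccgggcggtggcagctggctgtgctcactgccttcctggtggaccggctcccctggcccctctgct
Foxa3, chr1:87799436-87799735, minus strand: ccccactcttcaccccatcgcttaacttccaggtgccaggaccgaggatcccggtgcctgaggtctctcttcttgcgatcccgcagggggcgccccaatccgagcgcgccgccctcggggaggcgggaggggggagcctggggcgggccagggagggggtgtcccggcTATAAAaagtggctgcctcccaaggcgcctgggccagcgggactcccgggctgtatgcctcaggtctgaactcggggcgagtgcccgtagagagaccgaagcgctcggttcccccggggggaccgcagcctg
Foxa2, chr3:155927459-155927758, minus strand: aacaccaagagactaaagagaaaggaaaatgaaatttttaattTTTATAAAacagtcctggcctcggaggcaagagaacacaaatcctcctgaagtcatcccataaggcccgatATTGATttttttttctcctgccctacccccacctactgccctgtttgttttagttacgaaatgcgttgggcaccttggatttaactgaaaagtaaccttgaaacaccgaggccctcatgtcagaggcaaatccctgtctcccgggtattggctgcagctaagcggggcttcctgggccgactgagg
The capitals in the upstream Hnf4a window are the ONECUT core ATTGAT on the opposite strand, 29 bases before the start. The downstream Hnf4a window, chr3:172641586-172641885, is not shown and held no match to any of the 8 motifs. The ONECUT core occurred in 8.06% of all 33469 windows. Foxa3 held the TATA box string TATAAA 82 bases before the start. Foxa2 held an ONECUT core at 136 bases and overlapping TATAAA strings on both strands at 205 and 207 bases. Whether these strings act as TATA boxes was not tested. In windows not shown, TATAAA lay 35 bases before the start of Cebpa and 33 before that of Cebpb. TATAAA occurred in 14.2% of windows. The other motifs searched were TGTTTAC and TGTTTGC for FOXA factors, TTGCNNAA for C/EBP factors, AGGTCA for nuclear receptors, the D-box TTATGTAA and the E-box CACGTG. None of these was in the 3 windows shown, and they occurred in 3.78%, 4.88%, 10.6%, 16.2%, 0.893% and 6.42% of all windows. A match is a string of letters and not a site of binding. The table has 1 count per gene symbol, so transcripts from the 2 Hnf4a starts were not separated. Which start gave the measured Hnf4a level is therefore not shown by these data. The ONECUT core of the upstream window cannot be tied to that level.

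Libraries held between 31889957 and 53806710 counts in the Control group, between 70372293 and 79249765 in LPS and between 65113145 and 74809989 in Selfox. Levels are given as CPM (counts-per-million), each count relative to the TMM-scaled total of its library. They compare libraries for 1 gene and not genes with each other, since gene length was not used. Differences are log2 fold changes ± SE from edgeR's quasi-likelihood test over all 23 libraries, with p-values adjusted by Benjamini-Hochberg over the 15079 genes and called at 0.05. Hepatocyte markers were abundant in every group, with all 12 detected and a summed level of 165237 to 248013 CPM in Control, 130554 to 202265 in LPS and 147072 to 168785 in Selfox. Markers of other cells moved with the groups. In Selfox 11 of 12 macrophage markers were lower than in Control (summed 347 to 487 against 807 to 1105 CPM). There 5 of 9 tested neutrophil markers were higher than in Control (sum of all 11 with a row, 5.58 to 129 against 4.78 to 13.4 CPM). The neutrophil sums of Selfox 1, 2, 6, 7 and 9 lay within the Control range. Of 12 T, NK and B cell markers, 6 were lower in Selfox than in Control and 9 lower than in LPS, and 3 were higher in LPS than in Control (median summed level 16.8 CPM in Control, 24.8 in LPS and 13.0 in Selfox). Of 11 cholangiocyte markers 3 were higher in LPS and 2 in Selfox, and of 12 endothelial and stellate markers 1 was higher in LPS and 4 in Selfox, all against Control. Hepatocyte markers were called both ways in Selfox, 3 higher and 4 lower of 12, and 2 were higher in LPS. Over all genes, 14.7% were called in LPS against Control, 29.1% in Selfox against Control and 14.5% in Selfox against LPS. The part of these markers in the results was not tested. The clock gene Dbp was above its opposite-phase partner Arntl in log2 CPM in 5 libraries (Selfox 8, Control 55 and LPS replicates 5 to 7). In Selfox 8 the 2 were nearly equal (3.352 and 3.348). These libraries were 1 of 6 in Control, 3 of 7 in LPS and 1 of 10 in Selfox. For a call lost without them, clock phase and the smaller groups cannot be told apart. Sampling time is not in the labels. In whole tissue, fewer cells of a type and less RNA per cell cannot be told apart.

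Hnf4a and Foxa3 fell in Selfox livers, both against Control and against LPS livers, and the other 7 regulators did not pass the test in any of the 3 comparisons. In Selfox against Control 2 of 9 members were called, both lower, beside 29.1% of all genes called (14.2% higher and 14.9% lower), and 2 had an unadjusted p under 0.05, beside 40.3% of all genes. In Selfox against LPS 2 of 9 were called, both lower, beside 14.5% of all genes (6.86% higher and 7.64% lower), and 3 had an unadjusted p under 0.05, beside 28.3% of all genes. In LPS against Control 0 of 9 members were called by edgeR, beside 14.7% of all genes (7.71% higher and 6.99% lower). In that comparison 4 members had an unadjusted p under 0.05, beside 29.3% of all genes, while DESeq2 called 1 (Nr1i3) and limma voom called 2 (Hnf4a and Nr1i3). The median log2 fold change of the members was -0.00 for LPS against Control, -0.14 for Selfox against Control and -0.21 for Selfox against LPS, beside 0.01, 0.01 and 0.00 over all genes. The 3 comparisons share groups, so they are not independent of each other.

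**Figure D1:**
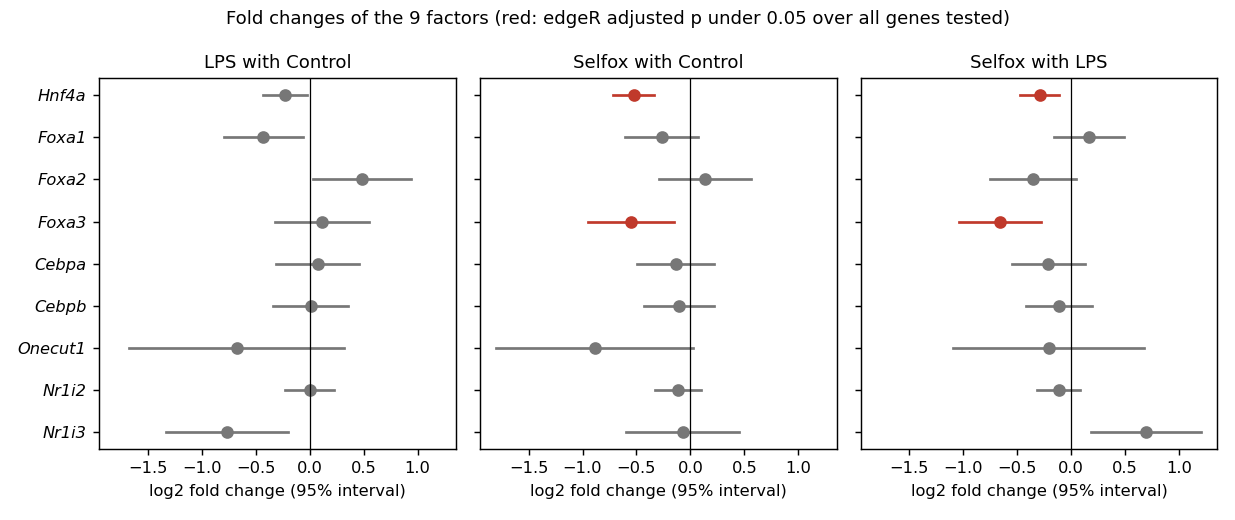
Log2 fold change (horizontal axis, with its 95% interval as a bar) of each of the 9 factors in the 3 comparisons, red where the edgeR adjusted p was under 0.05. Hnf4a and Foxa3 are red on the lower side in both Selfox comparisons, and no factor is red in LPS against Control.

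Hnf4a, the nuclear receptor at the centre of the hepatocyte network, ranged from 595 to 824 CPM in Control livers with a median of 713. LPS livers ranged from 548 to 668 CPM with a median of 593, and Selfox livers from 402 to 601 CPM with a median of 473. Of the 10 Selfox libraries, 9 lay below every Control library. The exception, Selfox 2 at 601 CPM, stood just above the lowest control. The means were 708 ± 74.5 CPM (SD, n = 6) in Control, 603 ± 45.8 CPM (SD, n = 7) in LPS and 492 ± 75.5 CPM (SD, n = 10) in Selfox. Hnf4a fell by 30.5% in Selfox against Control, a log2 fold change of -0.53 ± 0.091 (edgeR adjusted p = 0.000198). Leaving out each library in turn kept this call, with adjusted p between 8.69e-05 and 0.00118. Against LPS the fall was smaller, -0.29 ± 0.087 (edgeR adjusted p = 0.0249), with 7 of 10 Selfox libraries below every LPS library. That call was lost without LPS 5 (edgeR adjusted p = 0.0539), without LPS 7 (0.0612) and without the 5 libraries with Dbp above Arntl (-0.24, 0.19). The LPS group was not called against Control at -0.23 ± 0.099 (edgeR adjusted p = 0.116), although 4 of its 7 libraries were below every control, and limma voom gave -0.26 with an adjusted p of 0.0364.

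**Figure D2:**
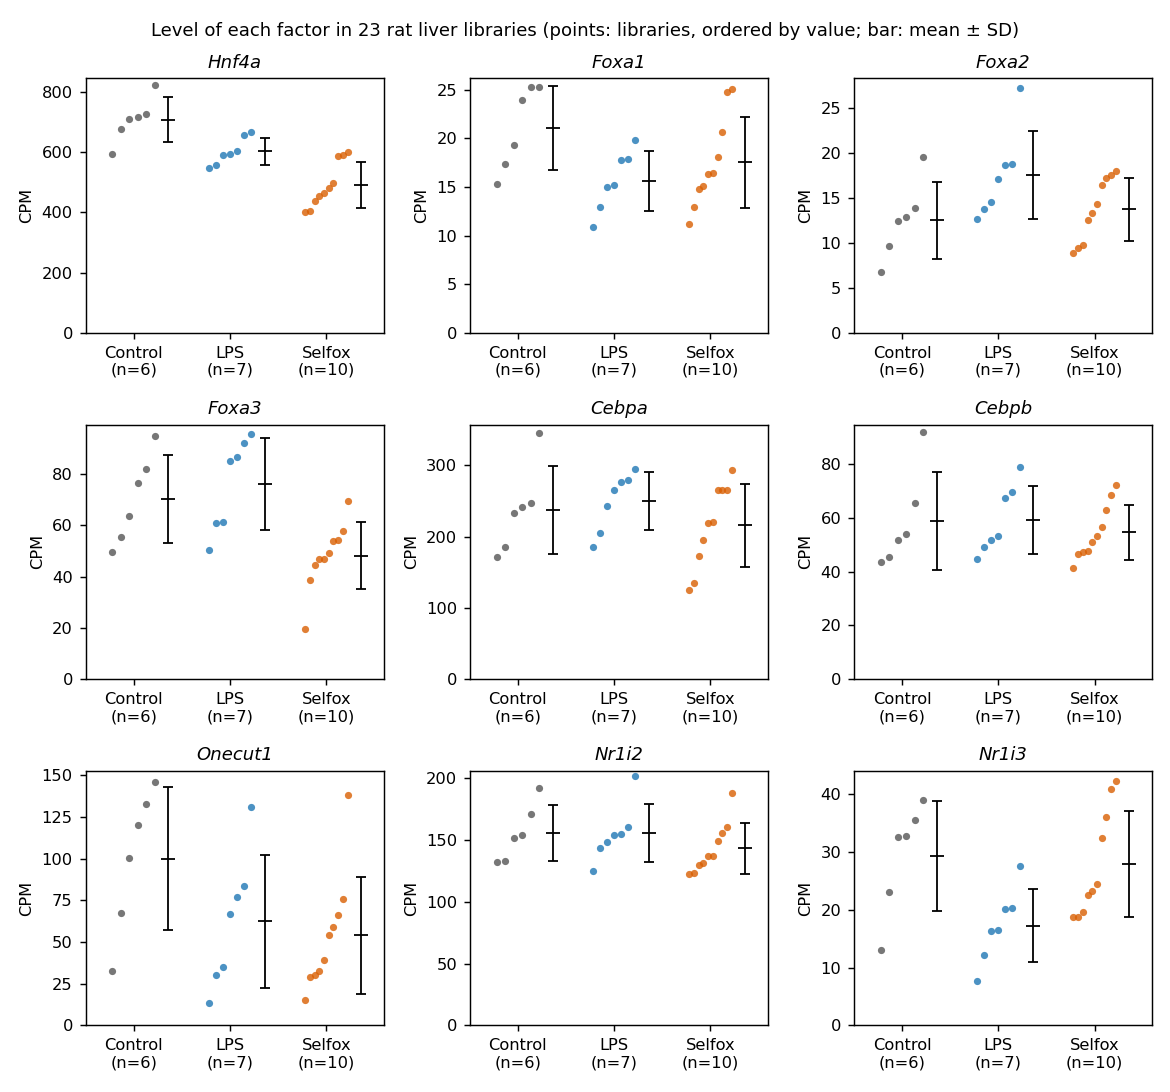
Level of each of the 9 factors in CPM (vertical axes, each with its own scale) in the 6 Control, 7 LPS and 10 Selfox libraries, with points for libraries and bars for mean ± SD. Hnf4a is lower in 9 of 10 Selfox libraries than in any control, while Onecut1 spreads widely in all 3 groups.

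The forkhead factors open chromatin at liver genes, and FOXA3 is the family member that appears latest in liver development. Foxa3 ranged from 49.4 to 94.8 CPM in Control (median 70.0), from 50.6 to 95.5 CPM in LPS (median 85.2) and from 19.8 to 69.7 CPM in Selfox (median 47.9). Of the 10 Selfox libraries, 6 lay below every control and 6 below every LPS library, so the groups overlapped. Foxa3 fell by 0.55 on the log2 scale in Selfox against Control (SE 0.19, edgeR adjusted p = 0.0358). This call is close to the threshold. It was lost without Control 40 (edgeR adjusted p = 0.0665), Control 41 (0.0884), Control 55 (0.0992), Selfox 3 (0.0584) or Selfox 4 (0.0529), and without the 5 libraries with Dbp above Arntl (-0.43, 0.134). Against LPS, Foxa3 fell by 0.66 (SE 0.18, edgeR adjusted p = 0.0181), a call kept in all 17 fits that left out 1 library and lost without the 5 Dbp-high libraries (-0.54, 0.145). The LPS group differed from Control by 0.11 ± 0.21, with a 95% interval from -0.32 to 0.55.

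Foxa1 and Foxa2, the family members that act first in liver development, were not called in any comparison. Foxa1 ranged from 15.3 to 25.3 CPM in Control, 10.9 to 19.8 CPM in LPS and 11.2 to 25.1 CPM in Selfox, with 4 of 7 LPS libraries below every control. Its log2 fold change was -0.43 ± 0.18 in LPS against Control (edgeR adjusted p = 0.105) and -0.26 ± 0.16 in Selfox against Control (0.235). Foxa2 ranged from 6.80 to 19.5 CPM in Control, 12.7 to 27.3 CPM in LPS and 8.85 to 18.0 CPM in Selfox. It differed by 0.48 ± 0.22 between LPS and Control (edgeR adjusted p = 0.145), with a 95% interval from 0.03 to 0.94. Without Control 55, the highest control at 19.5 CPM, that value was 0.66 and passed the test (edgeR adjusted p = 0.0396).

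C/EBP alpha maintains metabolic gene expression in the resting hepatocyte, and C/EBP beta takes part in the acute phase and in regeneration. Cebpa ranged from 172 to 346 CPM in Control, 186 to 295 CPM in LPS and 126 to 294 CPM in Selfox, and the groups overlapped almost fully. Its log2 fold change was 0.07 ± 0.19 in LPS and -0.14 ± 0.17 in Selfox, each against Control, with 95% intervals from -0.31 to 0.46 and from -0.49 to 0.22. Cebpb ranged from 43.4 to 92.0 CPM in Control, 44.7 to 78.8 CPM in LPS and 41.2 to 72.3 CPM in Selfox. Its log2 fold changes against Control were 0.01 ± 0.17 in LPS and -0.10 ± 0.16 in Selfox, with 95% intervals from -0.34 to 0.36 and from -0.43 to 0.22, and the small value in LPS changed sign under upper-quartile scaling (-0.01).

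Onecut1 encodes HNF6, a cut-homeodomain factor of hepatocytes and bile duct cells, and it varied more between libraries of 1 group than any other member. It ranged from 32.8 to 146 CPM in Control, 13.5 to 131 CPM in LPS and 15.4 to 138 CPM in Selfox, with highest-to-lowest ratios of 4.46, 9.69 and 8.97. The lowest libraries were Control 40, LPS 5 and Selfox 8. Libraries with Dbp above Arntl stood at both ends: LPS 5 and Selfox 8 were lowest in their groups, LPS 6 was the highest of LPS at 131 CPM, and Control 55 was near the Control mean at 101 CPM. The log2 fold changes against Control were -0.68 ± 0.48 in LPS (edgeR adjusted p = 0.371) and -0.89 ± 0.44 in Selfox (0.135). With this spread the 95% interval in Selfox ran from -1.80 to 0.03. Without Selfox 1, the highest Selfox library, the value was -1.16 and passed the test (edgeR adjusted p = 0.04).

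PXR and CAR sense drugs and bile acids. Nr1i2 (PXR) was among the most even members, at 132 to 192 CPM in Control, 125 to 202 CPM in LPS and 122 to 188 CPM in Selfox. Its log2 fold changes against Control were -0.00 ± 0.11 in LPS and -0.12 ± 0.10 in Selfox, with 95% intervals from -0.23 to 0.23 and from -0.33 to 0.09. Nr1i3 (CAR) ranged from 13.1 to 38.9 CPM in Control (median 32.6), 7.70 to 27.5 CPM in LPS (median 16.5) and 18.8 to 42.3 CPM in Selfox (median 23.9). In LPS the log2 fold change against Control was -0.77 ± 0.27 (edgeR adjusted p = 0.0627), and in Selfox against LPS it was 0.69 ± 0.25 (0.0628), both just outside the threshold. DESeq2 called both (adjusted p = 0.0276 and 0.0221), as did limma voom (0.0453 and 0.0467). Control 41 was the lowest control at 13.1 CPM. Without it Nr1i3 in LPS against Control was at -0.92 and passed (edgeR adjusted p = 0.0261), and without LPS 4 it was also at -0.92 (0.0303). Selfox against LPS passed without LPS 4 (0.0281), Selfox 4 (0.0482) or Selfox 8 (0.0495). Selfox and Control differed by -0.07 ± 0.25.

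The lists of genes that follow were chosen with earlier results of these data known, and their counts describe the data without a test of the list. Each count stands beside the share of all genes called in either direction. That share was 14.7% in LPS against Control, 29.1% in Selfox against Control and 14.5% in Selfox against LPS. Lists overlap: G6pc, Apoa1, Por and others stand in more than 1. Of 19 other liver transcription factors, 5 rose and 1 fell in Selfox against Control, and 1 rose and 1 fell in LPS against Control. Creb3l3, which encodes a fasting-responsive factor of lipid metabolism, fell by 0.52 in LPS (edgeR adjusted p = 0.00212) and by 0.66 in Selfox (3.32e-05), where all 10 libraries lay below every control. Nfib rose in both models (0.41 and 0.45), and Klf15, Zhx2 and Prox1 rose in Selfox (0.61, 0.43 and 0.40). The Nfib value in LPS stayed between 0.36 and 0.45 when 1 library was left out, with the adjusted p just over the threshold without Control 49 (edgeR adjusted p = 0.0582).

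Among 8 relatives of the C/EBP factors, 1 rose and 2 fell in Selfox against Control. Cebpd, which encodes the acute phase member C/EBP delta, was at 3.49 to 9.48 CPM in Control, 5.42 to 10.4 CPM in LPS and 3.69 to 43.2 CPM in Selfox. The Selfox group was split: Selfox 3, 4, 5 and 8 stood at 24.4 to 43.2 CPM and the other 6 libraries at 3.69 to 9.89 CPM. The same 4 libraries had the 4 highest summed neutrophil marker levels of the group, at 129, 54.2, 61.9 and 108 CPM, and the part of these markers in the result was not tested. The call in Selfox against Control (1.53 ± 0.50, edgeR adjusted p = 0.025) was lost without Control 41, without Control 55 and without the 5 Dbp-high libraries. Trib3, a stress-induced pseudokinase that binds C/EBP partners, fell by 1.52 in Selfox (edgeR adjusted p = 0.000328), and Cebpz fell by 0.36. The stress factor genes Atf4 and Ddit3 fell against LPS by 0.60 and 0.57, the Ddit3 call being lost in 11 of 17 fits that left out 1 library (-0.32 without LPS 5). Of the 3 PAR bZIP genes, whose products follow the daily clock, all 3 (Tef, Dbp and Hlf) were called lower in Selfox than in LPS. Of these calls, Dbp was lost in 5 and Hlf in 11 of the 17 fits, and without LPS 6 the Dbp value went from -3.10 to -1.98. The Dbp-high libraries number 3 of 7 in LPS and 1 of 10 in Selfox. Tef also fell in Selfox against Control (-0.77, edgeR adjusted p = 0.0433), a call lost in 14 of 16 such fits.

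Of 28 other nuclear receptors and xenobiotic sensors, 9 rose and 5 fell in Selfox against Control, and 4 rose and 1 fell in LPS against Control. Nr0b2 encodes SHP, a receptor without a DNA-binding domain that represses HNF4A, PXR and CAR activity. It ranged from 14.3 to 40.7 CPM in Control, 14.4 to 41.8 CPM in LPS and 2.45 to 13.7 CPM in Selfox, so all 10 Selfox libraries lay below every library of both other groups. It fell by 1.95 ± 0.30 against Control (edgeR adjusted p = 9.02e-05) and by 1.90 ± 0.29 against LPS (0.000175). Nfe2l2, the gene of the oxidative stress sensor NRF2, rose by 0.77 in LPS and 0.92 in Selfox, and Arnt, a partner of the aryl hydrocarbon receptor, by 0.32 in both. Nr1h4, the gene of the bile acid receptor FXR, was called higher in both (0.40 and 0.31), but the calls were lost in 5 of 13 and 9 of 16 fits that left out 1 library. Pparg was higher in Selfox than in Control (0.99 ± 0.27) and LPS (1.52 ± 0.25).

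Of 16 partners and coregulators of PXR and CAR, 3 fell and none rose in LPS against Control, and 5 fell and 1 rose in Selfox against Control. Rxra, the shared dimer partner, was not called in any comparison (log2 fold changes -0.02, -0.06 and -0.05), while its relative Rxrb fell by 0.45 in Selfox (edgeR adjusted p = 6.28e-05). Rxrb was lower in LPS by 0.22, a call lost in 10 of 13 fits that left out 1 library. Hsp90ab1, a chaperone that holds CAR in the cytoplasm, fell by 0.48 in LPS and by 0.50 in Selfox. Foxo1 was lower in Selfox (-0.33) and Ncoa3 higher (0.33), calls lost in 12 and 10 of 16 fits.

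Cyp2b2, the classical CAR target gene of rat liver, fell in LPS livers. It was at 15.2 to 125 CPM in Control (median 59.9), 5.40 to 19.8 CPM in LPS (median 6.48) and 13.0 to 47.9 CPM in Selfox (median 28.4). Of 7 LPS libraries 6 were below every control, and the fall was 2.65 ± 0.43 on the log2 scale (edgeR adjusted p = 0.000507). Cyp2b2 was higher in Selfox than in LPS by 1.67 ± 0.38 (edgeR adjusted p = 0.00548), a call lost without the 5 Dbp-high libraries, and its difference from Control was -0.98 ± 0.37 (0.0521). Cyp2b2 has a near-identical copy, so the division of reads between them is uncertain. Over the 14 CAR target genes with a row, 2 fell in LPS against Control, 2 rose and 2 fell in Selfox against Control, and 5 rose and 2 fell in Selfox against LPS. Akr7a3, an aldehyde reductase, rose by 1.85 ± 0.41 in Selfox against LPS and was called higher by 1.18 against Control (lost in 7 of 16 fits that left out 1 library, at 0.75 without Selfox 1). The transporter gene Abcc4 was higher by 0.50 than in Control and by 0.40 than in LPS (lost in 5 of 17), and the epoxide hydrolase gene Ephx1 by 0.61 than in LPS (lost in 10 of 17). Aldh1a1, listed for both receptors, was lower in LPS than in Control by 1.57 and higher in Selfox than in LPS by 1.42, calls lost in 7 of 13 and 7 of 17 fits.

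Of the 11 PXR target genes with a row, 1 was called higher and 1 lower in LPS against Control and 2 were called each way in Selfox against Control. Por, the gene of the reductase that passes electrons to all microsomal P450 enzymes, ranged from 336 to 594 CPM in Control, 310 to 566 CPM in LPS and 183 to 315 CPM in Selfox, below every control in all 10 Selfox libraries. It fell by 0.81 ± 0.15 against Control (edgeR adjusted p = 0.000272) and by 0.61 ± 0.14 against LPS (0.00481). Alas1, the gene of the first enzyme of haem synthesis, fell by 0.95 ± 0.26 (edgeR adjusted p = 0.00801) against Control and by 0.84 against LPS, the second call being lost in 2 of 17 fits that left out 1 library. Cyp3a18 rose by 0.87 ± 0.27 in Selfox, while Cyp3a23/3a1, the main PXR-induced P450 gene of rat liver, was not called (-0.11 in LPS and 0.09 in Selfox against Control); Cyp3a genes are near-identical, so reads may be shared between them. Thrsp, a lipogenic gene, was higher in both models (1.92 and 1.53), calls lost in 1 of 13 and 4 of 16 fits. Without Control 55, a control at 1286 CPM against a group median of 214, the Thrsp values were 3.03 and 2.65.

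**Figure D3:**
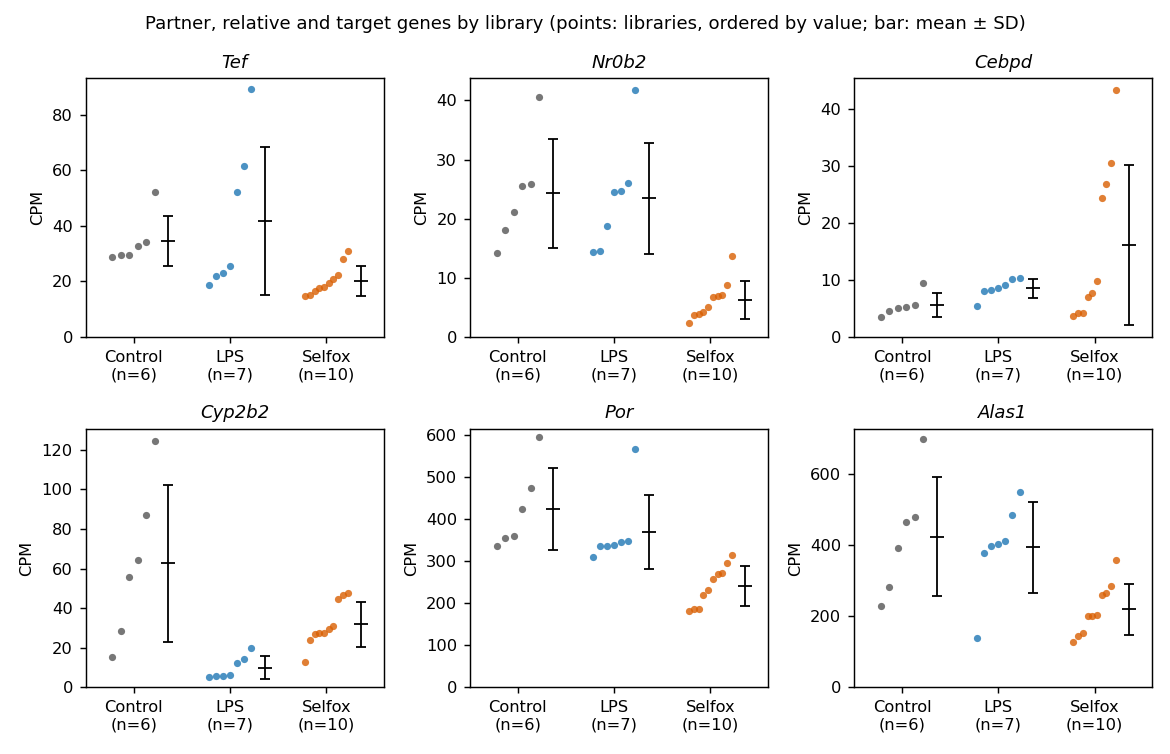
Level in CPM (vertical axes from 0) of Tef, Nr0b2, Cebpd, Cyp2b2, Por and Alas1 in each library, with points for libraries and bars for mean ± SD. Nr0b2 and Por lie below every control in all 10 Selfox libraries, Cebpd is high in 4 of 10, and Cyp2b2 is lowest in LPS.

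Genes listed as HNF4A targets were called in both directions. Of 29, 8 rose and 5 fell in Selfox against Control, 6 rose and none fell in LPS against Control, and 1 rose and 5 fell in Selfox against LPS. Their median log2 fold changes were 0.09 for LPS and 0.02 for Selfox, both against Control, beside 0.01 and 0.01 over all genes. Apoa1, the main protein of high-density lipoprotein, fell by 1.02 ± 0.15 in Selfox (edgeR adjusted p = 3.32e-05), with all 10 libraries below every control, and by 0.62 against LPS. Apoa2, a second protein of the same particle, rose by 0.74 in LPS and by 0.62 in Selfox (edgeR adjusted p = 0.000657 and 0.000488), with every library of both groups above every control. The bile acid genes Cyp8b1, Slc27a5 and Slc10a1 fell in Selfox by 1.53, 0.55 and 0.34. The Cyp8b1 call against LPS (-0.95) was lost in 11 of 17 fits that left out 1 library. Serpina1, the gene of alpha-1 antitrypsin, fell by 0.35, and Otc, a urea cycle gene, rose by 0.63. Pklr (1.68 and 1.70) and G6pc (0.63 and 0.73) were higher in both LPS and Selfox, although their LPS calls were lost in 10 and 12 of 13 fits. Without Control 55, a control at 776 CPM against a group median of 118, the Pklr values were 2.73 and 2.76. In LPS, Cyp27a1 (0.41) and the clotting factor gene F9 (0.30) also rose, both calls being lost without the 5 Dbp-high libraries. Apob (0.28) and Tf (0.23) rose in Selfox, each call being lost in 1 of 16 fits. Against LPS, F2 fell by 0.23 in Selfox (all 10 libraries below every LPS library, lost in 1 of 17 fits) and F9 by 0.21 (lost in 12 of 17).

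**Figure D4:**
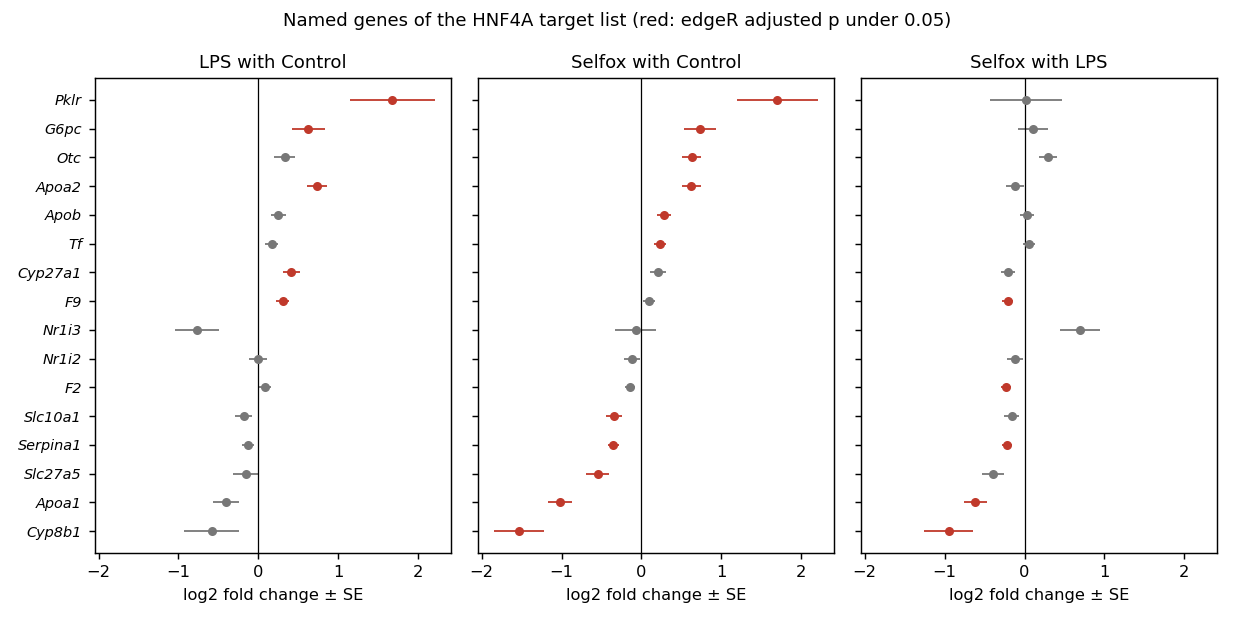
Log2 fold change ± SE (horizontal axis) of the 16 genes named in the text, of 29 listed as HNF4A targets, in the 3 comparisons, in the order of their value in Selfox against Control, red where the edgeR adjusted p was under 0.05. Red points lie on both sides of 0 in Selfox against Control, from Cyp8b1 and Apoa1 on the lower side to Pklr on the higher.

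Of 11 genes listed as FOXA targets, 5 fell and 1 rose in Selfox against Control, and 2 fell and 2 rose in LPS against Control. Cpt1a, which brings fatty acids into mitochondria, fell by 0.78 in LPS (lost without Control 49) and 1.20 in Selfox. Alb fell by 0.50 in Selfox, and Afp was called higher in LPS (0.58, lost in 9 of 13 fits that left out 1 library). Of 13 genes listed as C/EBP alpha targets, 3 rose in LPS, and 5 rose and 1 fell in Selfox, each against Control. Insr rose by 0.41 and 0.31 and Cps1 by 0.59 and 0.53, with every treated library above every control, and Cyp2c11 rose in Selfox by 0.94.

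Of 13 acute phase genes that C/EBP beta and delta act on, 5 were higher in LPS against Control (Hp, Lcn2, C3, Itih4 and Orm1) and 1 in Selfox (Orm1, 1.15 ± 0.32). All 5 LPS calls were lost without the 5 Dbp-high libraries, and those of Lcn2, C3, Itih4 and Orm1 were also lost in 3, 2, 4 and 8 of 13 fits that left out 1 library. Hp differed by 0.57 ± 0.15. Lcn2, which neutrophils also express, differed by 4.58 ± 1.30, with a median of 5.40 CPM and a maximum of 138 CPM in LPS, and by 2.22 (edgeR adjusted p = 0.13) without LPS 5. Orm1 in LPS went from 1.00 to 0.62 without LPS 7. Of 13 genes for signals upstream of C/EBP beta, Insr and the glucagon receptor gene Gcgr (0.41, lost in 4 of 13 fits) were higher in LPS. In Selfox those and Nfkbia (2.04 ± 0.42) and Il6 (3.06 ± 0.97, 3.82 without Control 40, lost without Control 49 and without the 5 Dbp-high libraries) were higher than in Control. Against LPS, Il6, Nfkbia and Il1b were higher in Selfox (5.51, 1.94 and 1.94), the Il1b call being lost in 7 of 17 fits. Il6 was near the floor in Control (0 to 0.928 CPM) and LPS (0 to 0.167 CPM), so its fold changes are uncertain in size. Selfox libraries spread widely, from 0.174 to 9.39 CPM for Il6, 66.5 to 493 for Nfkbia and 8.86 to 158 for Il1b. Cebpb itself was not called in any comparison.

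Of the 36 pairs of members, Foxa1 and Onecut1 had the highest positive correlation in LPS and in Control. The pair was picked for these values. Each adjustment covers the 36 pairs in 1 group, or over all libraries, and not all of these sets together. In LPS livers the correlation of log2 CPM was 0.97 (Pearson, n = 7, exact permutation p = 0.000397, adjusted over 36 pairs 0.0143), with Spearman 0.96 (exact permutation p = 0.00278, adjusted 0.1) and 0.89 without the 2 libraries farthest from the median of Foxa1. In Control it was 0.92 (n = 6, exact permutation p = 0.00694, adjusted 0.125), with Spearman 0.83 (exact permutation p = 0.0583, adjusted 0.525) and 0.76 without 2 libraries. In Selfox it was 0.04 (n = 10, permutation p = 0.917, adjusted 0.923), with Spearman 0.15 (permutation p = 0.682, adjusted 0.886) and 0.06 without 2 libraries. Over all 23 libraries with the group means removed it was 0.50 (permutation p = 0.0194, adjusted 0.218), with Spearman 0.57 (permutation p = 0.00755, adjusted 0.16) and 0.69 without 2 libraries. Whether the relation of Foxa1 and Onecut1 differs between groups was not tested. Other pairs stood farther from 0 elsewhere. Foxa2 and Nr1i2 were at -0.94 in Control (exact permutation p = 0.00417, adjusted 0.125). Onecut1 and Nr1i3 were at 0.69 in Selfox (permutation p = 0.0255, adjusted 0.683). With the group means removed, Hnf4a and Cebpa were at 0.53 and Foxa2 and Cebpb at -0.58 (permutation p = 0.0242 and 0.00926, both adjusted 0.218). LPS 5, the lowest LPS library for both genes, also had the highest neutrophil marker sum of its group (144 CPM).

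**Figure D5:**
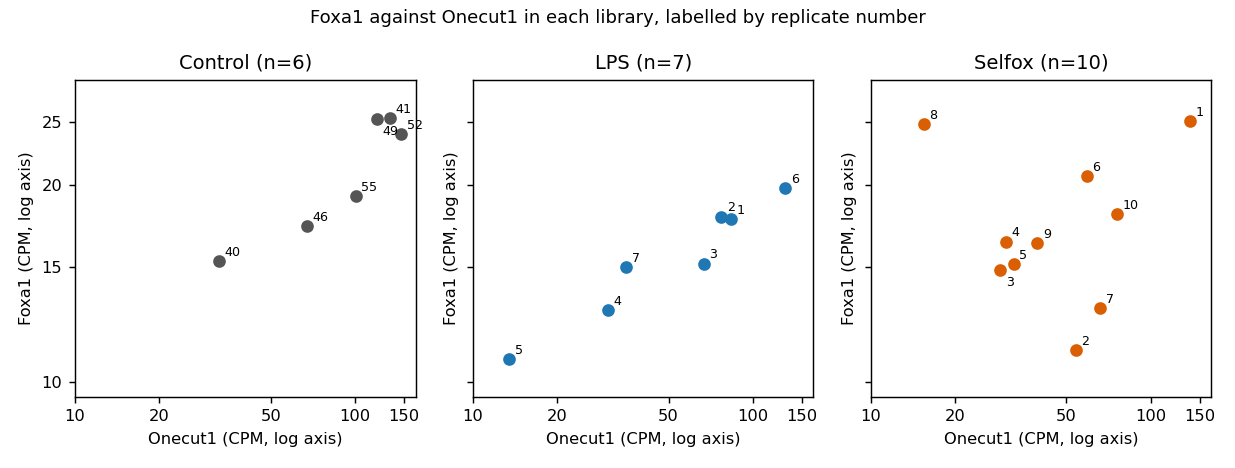
Foxa1 against Onecut1 in each library (CPM, both axes logarithmic), 1 panel per group, with points labelled by replicate number. The 7 LPS and 6 Control libraries lie near a rising line, while Selfox 8 combines low Onecut1 with high Foxa1.

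The genes whose log2 CPM followed each member most closely across all 23 libraries are given as a description, since group differences and shared scaling enter the correlation. They were Pygo2 (r = 0.88) and Irf2bp1 (0.86) for Hnf4a, Champ1 (0.74) for Foxa1 beside a gene without a common name, and Cisd3 and Btbd9 (both 0.77) for Foxa2. For Foxa3 they were Gdf2 and Zcchc14 (both 0.82), for Cebpa Zfp672 (0.75) and Mad2l1bp (0.73), and for Cebpb Egfl7 (0.72) and Drap1 (0.70). Onecut1 was followed by Hs3st3b1 (0.85) and Napepld (0.84), Nr1i2 by Atg3 (0.72) and Pnpla7 (0.69), and Nr1i3 by Fech (0.82) and Vnn3 (0.81). With the group means removed, the value for Hnf4a and Pygo2 was 0.66 and that for Onecut1 and Napepld 0.84.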

How the data were processed

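The authors deposited 1 table of raw counts per gene, with 1 column for each of the 23 libraries. Per the labels' protocols, RNA was extracted with Trizol and a Qiagen column and libraries were made with the TruSeq stranded mRNA kit. Per the submitters' processing notes, FastQC, Trim Galore, STAR 2.7.9a and featureCounts of Subread 2.0.3 were used. No genome build, annotation or strand setting was given in the sources used here. Genes that overlap or have an antisense partner are therefore uncertain.

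Genes were kept by filterByExpr (minimum count 10), scaled by TMM and tested with edgeR 4.0.16 (glmQLFit, robust, R 4.3.3) in 1 fit of all 3 groups, with Benjamini-Hochberg adjustment at 0.05. CPM used the TMM-scaled library sizes, log2 CPM a prior count of 2, and 95% intervals the t distribution. Correlations of members were tested by permutation, exact for up to 7 libraries and with 100000 draws otherwise. DESeq2 1.42.0, limma 3.58.1 (voom with sample weights), other scalings, filters, equal depth and leaving out each library were the alternatives. The exclusion of the 5 libraries with Dbp above Arntl was chosen after seeing the data. The fit was first tested on simulated data with set changes. Of 67 genes changed 1.5-fold it recovered 37 in LPS against Control, 35 in Selfox against Control and 45 in Selfox against LPS. Of 67 changed 2-fold it recovered 54, 61 and 61. False calls were 1.9%, 4.71% and 3.91% of all calls. A change near 1.5-fold can therefore be missed.

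No 2 columns were identical, and the highest correlation between libraries was 0.992. The 9 members and all gene lists were chosen with earlier results of these data known. All 9 members are described, and from each list up to 4 called genes with the smallest adjusted p in each comparison, with others named for a count of 5 or fewer, or for their role, after their values were seen. List genes without a row were not analysed here. List counts cover every tested gene of a list, and values of some of these genes are not reported here.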

Additional observations from a re-analysis of the deposited data

Results flagged for a closer look

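In 11 of 213 sets of 1 gene in 1 group, 1 library stood apart from the rest of its group by Dixon's test on log2 CPM. Chance flags about 1 in 20 such sets. Among the 27 sets of the 9 members there was 1: Foxa3 in Selfox 6 was the lowest of its group at 19.761 CPM, with the next library at 38.54. Control 55 stood apart for Tef (highest, 52.071 CPM, next 34.27), Dbp (highest, 34.2 CPM, next 3.1863), Apob (lowest, 7129.8 CPM, next 9004.3) and Cyp2c11 (highest, 3520.5 CPM, next 1378.6). Control 49 was highest for Rxra at 174.28 CPM, next 166.62. LPS 6 was lowest for Cebpd (5.4153 CPM, next 8.1476) and Rxrb (11.852 CPM, next 13.161) and highest for Por (565.91 CPM, next 348.41). LPS 3 was lowest for Alas1 at 138.98 CPM, next 377.88. Selfox 4 was highest for Itih4 at 5639.9 CPM, next 4589.3.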

How the results depend on the processing

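The fall of Hnf4a in Selfox against Control passed under every alternative run, between -0.57 and -0.47. The count of members called in LPS against Control was 1 with DESeq2, 2 with limma voom and 0 to 1 when 1 library was left out, and in Selfox against Control it was 1 without the filter, 1 without the 5 libraries with Dbp above Arntl and 1 to 3 when 1 library was left out. In Selfox against LPS it was 0 without those 5 libraries and 1 to 3 when 1 library was left out. The genes called in LPS against Control numbered 1409 to 2723 when 1 library was left out, the lowest without Control 49, and those in Selfox against LPS 1434 without the 5 libraries. Values near 0 changed sign: Cebpb in LPS against Control was -0.0126 under upper-quartile scaling and -0.0135 without the 5 libraries, and Nr1i2 in LPS against Control 0.0127 without the filter. Dbp in Selfox against LPS was 0.192 without the 5 libraries, which were chosen by their Dbp level, so that value says nothing about Dbp. When 1 library was left out, LPS against Control ran from -0.00410 to 0.212 for Cebpa, -0.0762 to 0.185 for Cebpb and -0.0748 to 0.0678 for Nr1i2. Selfox against Control ran from -0.215 to 0.000569 for Cebpa, -0.178 to 0.0694 for Cebpb and -0.212 to 0.0365 for Nr1i3, and Selfox against LPS from -0.483 to 0.0811 for Onecut1. The causes were not tested. Of the other named genes, Trib3, Alas1, Aldh1a1, Ephx1, Cyp2b2, Serpina1, Cyp8b1, F2, F9, Ddit3, Nfkbia and Il1b lost their call in Selfox against LPS without the 5 libraries. LPS and Selfox share 7 replicate numbers, but same-numbered libraries correlated at -0.0595 to 0.160, 1 of 7 over 0.1 and 1 of 7 best with its own number, so the numbers were not taken as pairs. With the replicate block on these 14 libraries, 1 member (Foxa3, -0.73) and 1259 genes were called, against 0 members without the block, and Onecut1 was at 0.0111. Hnf4a was at -0.21 with the block and -0.20 without it.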
